A study of Homo sapiens with 6 samples.

Results

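The transcripts described here are those of the fibroblast growth factor (FGF) receptors FGFR1, FGFR2, FGFR3 and FGFR4 and of the ligands FGF1 and FGF2. They were chosen by gene name, and all 6 were found among the 236 genes of a cancer gene panel. RNA came from NCM-460, an established epithelial line derived from normal human colon, and was counted with the NanoString nCounter assay, in which barcoded probes hybridise to RNA and are counted without amplification. In 3 samples the cells had been transfected with a control siRNA, and in 3 with pri-miR-135b, the unprocessed precursor of the microRNA miR-135b, so by the sample labels an siRNA was set against a microRNA precursor. The series-level design text instead names oligos for both arms, scrambled or miR-135b, and what was transfected is therefore not settled here. miR-135b is raised in many colon tumours, and the comparison asks which transcripts differ when more of it is supplied. All samples come from 1 cell line, and the labels do not state that the samples of a group were separate cultures, so the p-values rest on a spread that may be technical.

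FGFs are secreted proteins that bind receptor tyrosine kinases at the cell surface together with heparan sulfate. Ligand binding pairs the receptors, which then phosphorylate each other and adaptor proteins and switch on the RAS-MAPK, PI3K-AKT and STAT pathways. The genes FGFR1, FGFR2 and FGFR3 are each spliced into forms with different ligand preference, of which epithelia mostly use the IIIb forms and mesenchyme the IIIc forms. FGFR4 works with the co-receptor beta-Klotho in the response to the intestinal hormone FGF19. FGF1 can activate all of these receptors, and FGF2 is best known as a mitogen of fibroblasts and endothelial cells. The assay gave 1 count per gene, so splice forms were not separated here. RefSeq lists 14 transcripts for FGFR1, 17 for FGFR2 and 5 for FGFR3, and which of them a probe detects was not examined.

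The microRNA given to the cells is shown with its sister miR-135a because the seed, bases 2 to 8 and in capitals, is the part that pairs with target transcripts. The sequences, written 5′ to 3′, are those of RefSeq on GRCh38.p14, where miR-135b-5p lies at chr1:205448361-205448383 and miR-135b-3p at chr1:205448323-205448344, both on the minus strand.
miR-135b-5p: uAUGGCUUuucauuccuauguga
miR-135a-5p: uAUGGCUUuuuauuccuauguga
miR-135b-3p: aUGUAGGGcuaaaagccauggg
The 5p strands of miR-135b and miR-135a share the seed AUGGCUU, whose complement in a transcript reads AAGCCAU, and the 3p strand of miR-135b has another seed. Transcript sequences of the FGF genes were not used here, so no such site was looked for in them, and miR-135b itself was not among the genes counted.

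Total gene counts were between 250792 and 392207 per sample. Background was set in each sample at the mean plus 2 SD of its 8 negative control probes, between 14.7 and 26.1 counts, and the 174 genes above it in at least 3 samples were tested. Of these, 75 (43.1%) were called by the quasi-likelihood test of edgeR (adjusted p under 0.05), 31 (17.8%) as higher and 44 (25.3%) as lower with pri-miR-135b. The share of higher calls was 41.3% with the TMM scaling used here, 55.2% with reference gene scaling and 56.9% with background subtracted. Only 3 of the 12 colon epithelial markers listed were on the panel. CDH1 (E-cadherin) and ERBB3 were well above background, and MUC1 exceeded it in 1 sample. These markers did not move together: CDH1 rose 1.22-fold with pri-miR-135b (edgeR adjusted p = 4.92e-05, 0.162 with positive spike scaling), ERBB3 fell 1.42-fold (2.55e-07), and MUC1, not tested, had means of 12.4 and 7.83 normalised counts. The 3 together summed to between 2461 and 2588 normalised counts with control siRNA and between 2523 and 2692 in pri-miR-135b samples. The 3 fibroblast markers on the panel summed to between 26.1 and 42.8 normalised counts with control siRNA and between 36.6 and 38.6 in pri-miR-135b samples. For the 4 endothelial markers the sums were 47.7 to 52.8 and 48.3 to 63.7, and for the 8 blood cell markers 85.7 to 95.4 and 80.3 to 97.4. Of these, 2 of the 3 fibroblast, 2 of the 4 endothelial and 6 of the 8 blood cell markers exceeded background in no sample. Over the panel this was 47 of 236 genes. The negative control probes averaged 7.62 to 13 raw counts per sample. Sums this close to background are not read as signal of those cell types. In bulk RNA, fewer cells of a type and less RNA per cell cannot be told apart.

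Of the 6 FGF transcripts, FGFR2, FGFR3 and FGFR4 exceeded background in all 6 samples, FGF1 in the 3 pri-miR-135b samples and in none of the control samples, and FGFR1 and FGF2 in no sample. FGFR3 fell by 0.61 on the log2 scale with pri-miR-135b, 1.53-fold lower. FGFR2, FGFR4 and FGF1 did not pass the test, and FGFR1 and FGF2 were too close to background to be tested. Thus 1 of the 4 members tested was called, and it was lower, beside 25.3% of all tested genes called lower. That share is close to the one over the panel and is no result about the family.

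**Figure D1:**
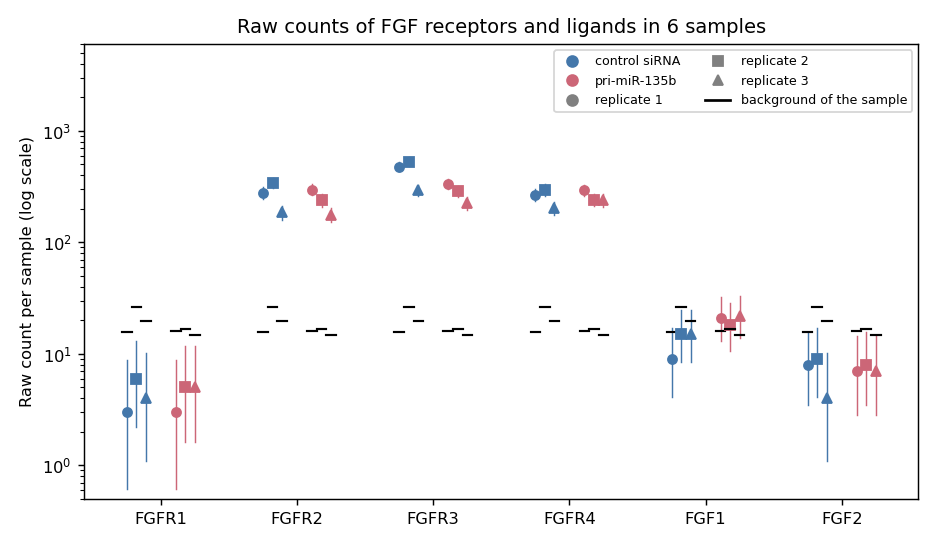
Raw counts (log axis) of the 6 FGF transcripts in each of 6 samples, control siRNA in blue and pri-miR-135b in red, with exact 95% Poisson intervals of the count and the background of that sample as a black bar. FGFR2, FGFR3 and FGFR4 lie between 176 and 530 counts in every sample, FGF1 lies around background, and FGFR1 and FGF2 lie below it throughout.

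Among the ligands, FGF2 was counted 8, 9 and 4 times in control replicates 1 to 3 and 7, 8 and 7 times in the pri-miR-135b replicates. These raw counts were below the mean of the 8 negative control probes in every sample (7.62 to 13 counts), so no FGF2 signal was detectable at this depth. Fitted without the filter on low counts, its log2 fold change was 0.08 with a 95% interval of -0.76 to 0.91 (edgeR adjusted p = 0.916).

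FGF1 was the only member above background in one group and not in the other. Its raw counts were 9, 15 and 15 in control samples, against background levels of 15.5, 26.1 and 19.7. In pri-miR-135b samples they were 21, 18 and 22, against 16.0, 16.7 and 14.7. The raw counts of the groups did not overlap, but the background level was itself higher in control replicates 2 and 3 than in any pri-miR-135b sample. After scaling for depth, FGF1 had 8.76, 12.4 and 19.6 normalised counts in control samples and 17.5, 17.8 and 28.0 in pri-miR-135b samples, and here the groups overlapped, since control replicate 3 lay above pri-miR-135b replicates 1 and 2. The means were 13.6 ± 5.51 and 21.1 ± 6.0 (SD, n = 3), and the fitted log2 difference was 0.64 (SE 0.31, 95% interval -0.01 to 1.3), which did not pass edgeR's test (adjusted p = 0.103). FGF1 entered the test only through the group in which it was higher. Without control replicate 3 its log2 fold change was 0.93 and passed (edgeR adjusted p = 0.0397), and with background subtracted it was 2.26 and did not pass (limma adjusted p = 0.0558). The size of 2.26 is not read, because the 9 and 15 counts of control replicates 1 and 2 were close to the subtracted means, 8.625 and 13. Values under 1 after subtraction were set to 1. Without control replicate 1 the log2 fold change was only 0.42, and without pri-miR-135b replicate 3 only 0.435, and neither passed (edgeR adjusted p = 0.307 and 0.356). Counting error alone is wide at this level, with a 95% Poisson interval of 4.12 to 17.1 around the 9 counts and of 13.8 to 33.3 around the 22 counts.

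FGFR1, the receptor typical of mesenchymal cells, was counted 3, 6 and 4 times in control samples and 3, 5 and 5 times in pri-miR-135b samples. All 6 counts were under the mean of the negative control probes of their sample. No FGFR1 signal was therefore detectable at this depth in either group, and the log2 fold change without the filter, 0.01, had a 95% interval of -1.07 to 1.09 (edgeR adjusted p = 0.992).

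FGFR3, a receptor that activating mutations tie to skeletal dysplasia and bladder cancer, was counted, after normalisation, 464.5, 437.5 and 381.5 times in control replicates 1, 2 and 3. In the pri-miR-135b replicates it had 278.8, 284.2 and 284.2. Every control sample lay above every pri-miR-135b sample. Such a lack of overlap was found in 51.7% of all tested genes. The means were 427.8 ± 42.4 in control and 282.4 ± 3.13 in pri-miR-135b samples (SD, n = 3). The log2 fold change was -0.61 (SE 0.08, 95% interval -0.78 to -0.45, edgeR adjusted p = 1.39e-06). Among the 44 genes that fell it had the 4th largest log2 fall. The difference was larger than the spread within either group.

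The spread of FGFR3 was uneven. In control samples its coefficient of variation was 9.90%, where counting error alone gives 4.81%. In pri-miR-135b samples it was 1.11%, less than the 5.96% that counting error gives, so the closeness of these 3 values is no measure of how much cultures vary. The fitted error of FGFR3 borrows spread from all tested genes. Leaving out control replicate 1, the highest, gave a log2 fold change of -0.55, and leaving out control replicate 3, the lowest, gave -0.67 (edgeR adjusted p = 2.2e-05 and 9.97e-08).

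FGFR2, the receptor whose IIIb form lets epithelia respond to FGF7 and FGF10 from the stroma, had 270.7, 280.7 and 241.7 normalised counts in control samples and 247.2, 234.7 and 224.3 in pri-miR-135b samples. The groups overlapped through control replicate 3, which lay below pri-miR-135b replicate 1. The means were 264.4 ± 20.2 and 235.4 ± 11.4 (SD, n = 3), and the fitted log2 difference was -0.17 (SE 0.09, 95% interval -0.35 to 0.01), which did not pass (edgeR adjusted p = 0.114). Without control replicate 3 it was -0.21 and passed (edgeR adjusted p = 0.0445).

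FGFR4 had 260.99, 243.5 and 262.6 normalised counts in control samples and 243.8, 237.6 and 302.1 in pri-miR-135b samples. The value of pri-miR-135b replicate 3 was above all the others, and the groups overlapped. The means were 255.7 ± 10.6 and 261.2 ± 35.6 (SD, n = 3), and the fitted log2 difference was 0.02 (SE 0.09, 95% interval -0.18 to 0.21, edgeR adjusted p = 0.89). Its sign turned without pri-miR-135b replicate 3 (-0.08) or control replicate 2 (-0.02). In pri-miR-135b replicate 3 the positive spike counts were also the highest relative to gene counts, at 11.3% where the other samples had 8.18% to 9.89%. The part of this in the FGFR4 value was not tested.

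**Figure D2:**
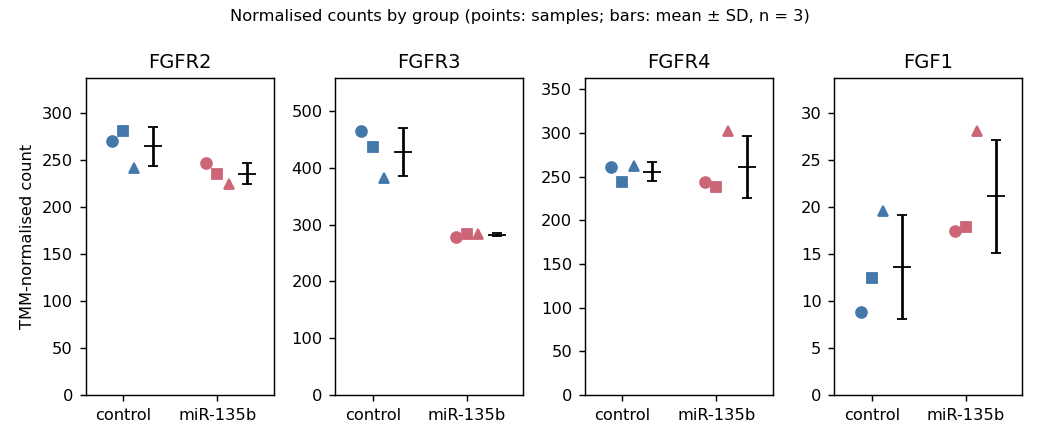
TMM-normalised counts of FGFR2, FGFR3, FGFR4 and FGF1 (each panel with its own linear axis from 0), with 1 point per sample and the mean ± SD of 3 samples beside it in black. FGFR3 is the member whose groups do not overlap, with control samples between 381.5 and 464.5 and pri-miR-135b samples between 278.8 and 284.2.

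Control replicate 3 had the lowest FGFR2 and FGFR3 and the highest FGF1 normalised counts of the control group. With 3 samples 1 is always lowest, and these transcripts were correlated within groups, FGFR2 and FGF1 at -0.81. They are therefore not separate signs. Leaving control replicate 3 out raised the number of members called from 1 to 3, through FGFR2, lower, and FGF1, higher. It was also the control sample with the lowest total gene count, 250792, though pri-miR-135b replicate 3 had 251413. Over the 6 samples the log2 normalised counts of FGFR2 and FGFR3 had a Pearson r of 0.83, and of 0.68 after subtracting the mean of each group. For FGFR3 and FGFR4 these values were -0.11 and -0.04, and for FGFR3 and FGF1 -0.78 and -0.78. These are descriptions of 6 libraries that share their scaling.

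Whether FGFR3 moved apart from the other receptors was examined with ratios of raw counts within each sample, into which no scaling enters. The ratios were chosen after the data were seen and use the same FGFR3 counts, so they are no separate support for its fall. The level of such a ratio depends on the probes, so only its change between groups is read. The ratio of FGFR3 to FGFR2 counts was 1.72, 1.56 and 1.58 in control samples and 1.13, 1.21 and 1.27 in pri-miR-135b samples. The groups did not overlap, and the mean log2 ratio was lower by 0.43, that is 1.35-fold. The ratio of FGFR3 to FGFR4 counts was 1.78, 1.80 and 1.45 in control samples and 1.14, 1.2 and 0.941 in pri-miR-135b samples. Again the groups did not overlap, with a 1.53-fold lower mean. The ratio of FGFR2 to FGFR4 was 1.04, 1.15 and 0.920 against 1.01, 0.988 and 0.743, and here the groups overlapped. The exact two-sided permutation p was 0.1 for both ratios with FGFR3 and 0.4 for FGFR2 over FGFR4, or 0.15, 0.15 and 0.4 adjusted over these 3 pairs. With 3 samples a group 0.1 is the smallest p this test allows, so none could pass 0.05.

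**Figure D3:**
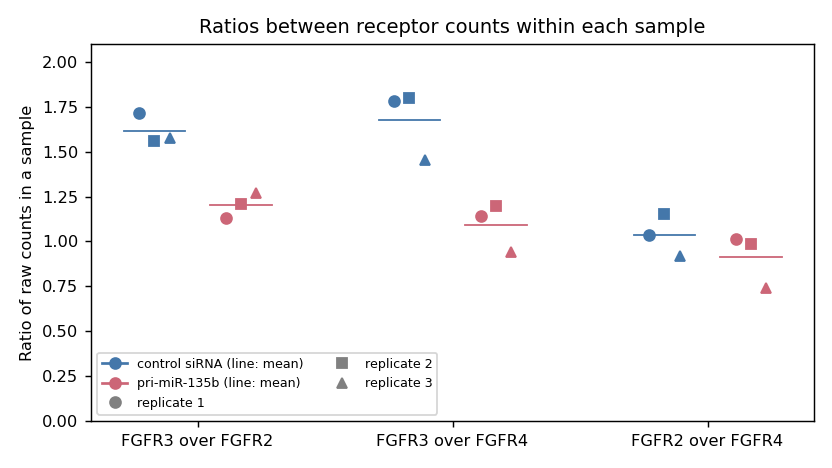
Ratios of raw counts between 2 receptors in the same sample (linear axis from 0), 1 point per sample and a line at the mean of each group of 3. Both ratios with FGFR3 on top are lower in every pri-miR-135b sample than in any control sample, while FGFR2 over FGFR4 overlaps.

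By likeness over the 6 samples, the tested genes closest to FGFR3 were SYK, a cytoplasmic tyrosine kinase (Pearson r = 0.99), PDGFA, a platelet-derived growth factor chain (0.98), and FOSL2, an AP-1 factor (0.97). SYK had 909.6, 814.7 and 777.3 normalised counts with control siRNA and 510.1, 522.8 and 497.1 in pri-miR-135b samples. SYK, PDGFA and FOSL2 were all called lower, as FGFR3 was, so their likeness to FGFR3 is partly the shared group difference. Closest to FGFR2 were CDK2, CEBPA and TFDP1 (0.97, 0.97 and 0.96), and closest to FGF1 were PIM1, MMP2 and KDR (0.93, 0.93 and 0.92). Like FGF1, MMP2 and KDR lay near background and exceeded it only in the 3 pri-miR-135b samples. They too entered the test only through the group in which they were higher, so their likeness to FGF1 is partly built in. For FGFR4 the highest over the 6 samples was YY1 at 0.79, and after subtracting the group means it was AKT2 at 0.95. Each of these was picked among the highest of 173 values over 6 samples. After subtracting the group means the highest for FGFR3 was LAMB1, a laminin chain, at 0.91. LAMB1 was itself called higher (log2 fold change 0.36, edgeR adjusted p = 4.07e-06). SYK, PDGFA and FOSL2 were then not among the 3 highest.

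The rest of the FGF pathway could be followed only below the receptors. None of 21 further ligands, binding partners and co-receptors listed was on the panel. Of 22 tested genes of adaptors and kinases, inhibitors and response genes, 5 rose and 7 fell, beside 43.1% of all tested genes called, and 8 of these 12 calls were kept in every fit that left out a sample. How many of all 75 calls were kept in every such fit is not given here. With positive spike scaling 4 of the 12 pathway calls remained, while the number of calls over all 174 tested genes went from 75 to 27. These counts are no result about the pathway. Among 10 tested adaptors and kinases 2 rose and 3 fell, beside 17.8% and 25.3% of all tested genes. Their median log2 fold change was -0.01 against -0.04 for all tested genes. At this number these calls are no result about the list. STAT3, a transcription factor that receptor kinases can activate, had 642.7, 630.6 and 577.4 normalised counts with control siRNA and 943.7, 932.7 and 883.3 in pri-miR-135b samples, a 1.49-fold rise without overlap (edgeR adjusted p = 3.18e-08).

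Of 2 tested inhibitors of receptor signalling, NF1, which switches RAS off, fell 1.21-fold. It had 1006, 951.7 and 1014 normalised counts with control siRNA and 816.4, 828.7 and 795.4 in pri-miR-135b samples (edgeR adjusted p = 0.000117), and its call was lost with positive spike scaling (0.323). The other inhibitor did not pass. Of 10 tested transcripts that respond to receptor and MAPK signalling 3 rose and 3 fell, beside 17.8% and 25.3% of all tested genes, and their median log2 fold change was 0.08 against -0.04 for all tested genes. With 10 genes these counts are no result about the list. ETS1, a transcription factor activated by MAPK, had 455.8, 445.7 and 489.9 normalised counts with control siRNA and 922.9, 1011 and 1060 in pri-miR-135b samples. JUN, a subunit of AP-1, had 452.8, 475.5 and 461.2 against 645.8, 658.4 and 591.4. Both rose without overlap, while FOSL2 and MYC, a growth-promoting transcription factor, fell 1.39-fold and 1.35-fold. With positive spike scaling the call of FOSL2 was kept (edgeR adjusted p = 0.0343) and that of MYC was lost (0.0624).

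Among other receptor tyrosine kinases, 19 were on the panel and 7 could be tested. As for FGFR1, the counts of 11 of the 19 exceeded background in no sample, beside 47 of the 236 genes on the panel. Of the 7 tested, 1 rose and 2 fell, beside 17.8% and 25.3% of all tested genes. At this number these calls are no result about the list. MET, which binds hepatocyte growth factor, rose 1.25-fold, a call lost with positive spike scaling (edgeR adjusted p = 0.093). ERBB3, a receptor for neuregulins, fell 1.42-fold, from 854.0, 873.3 and 872.7 to 644.9, 564.4 and 614.4 normalised counts. ERBB2, the partner of ERBB3, was called 1.14-fold lower (edgeR adjusted p = 0.0234), a call lost without control replicate 1 or 3 or pri-miR-135b replicate 1 or 2 (0.0537, 0.128, 0.111 and 0.0568), and lost with 3 of the other scalings and with 2 other methods (up to 0.656). The other 4 did not pass. The log2 fold change of FGFR3, -0.61, was lower than that of ERBB3, -0.51, but the difference was not tested.

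Among the 5 other growth factors tested, 2 fell and none rose, beside 25.3% and 17.8% of all tested genes, which at this number is no result about the list. PDGFA had 100.3, 100.7 and 87.5 normalised counts with control siRNA and 68.2, 74.3 and 67.6 in pri-miR-135b samples, a 1.38-fold fall (edgeR adjusted p = 0.00879). The EGF family ligand AREG had 839.4, 885.7 and 971.96 against 756.4, 823.8 and 788.98, a 1.13-fold fall (edgeR adjusted p = 0.0163). The call of PDGFA was lost without pri-miR-135b replicate 1 (0.0531), with positive spike scaling (0.116) and with the Wald test of DESeq2 (0.0583). That of AREG was lost without control replicate 3 (0.123) or pri-miR-135b replicate 1 (0.101), with reference gene scaling (0.0739) and positive spike scaling (0.686), with DESeq2 (0.0617) and with background subtracted (0.0791).

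**Figure D4:**
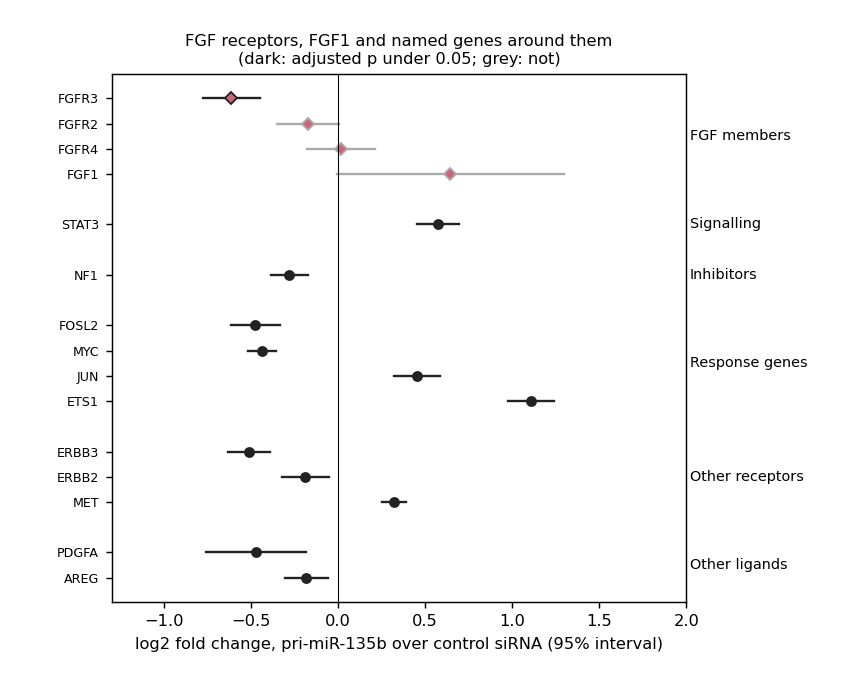
Log2 fold changes, pri-miR-135b over control siRNA, with 95% intervals from edgeR, for the tested FGF members (diamonds) and named genes around them (circles), dark where the adjusted p was under 0.05. FGFR3 at -0.61 is the only FGF member whose interval excludes 0, while the interval of FGF1, -0.01 to 1.3, is the widest shown.

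The fall of FGFR3 passed in all 19 alternative analyses, with log2 fold changes between -0.67 and -0.55. Its adjusted p lay between 2.3e-13 (edgeR with the replicate block) and 0.00358 (edgeR with positive spike scaling). The block takes samples of the same number as pairs, which the labels do not state. All 19 analyses reuse the same 6 samples. The log2 fold changes of FGFR2 were between -0.21 and -0.12 and passed in 1 of 19. Those of FGFR4 were between -0.08 and 0.08 and passed in none.

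**Figure D5:**
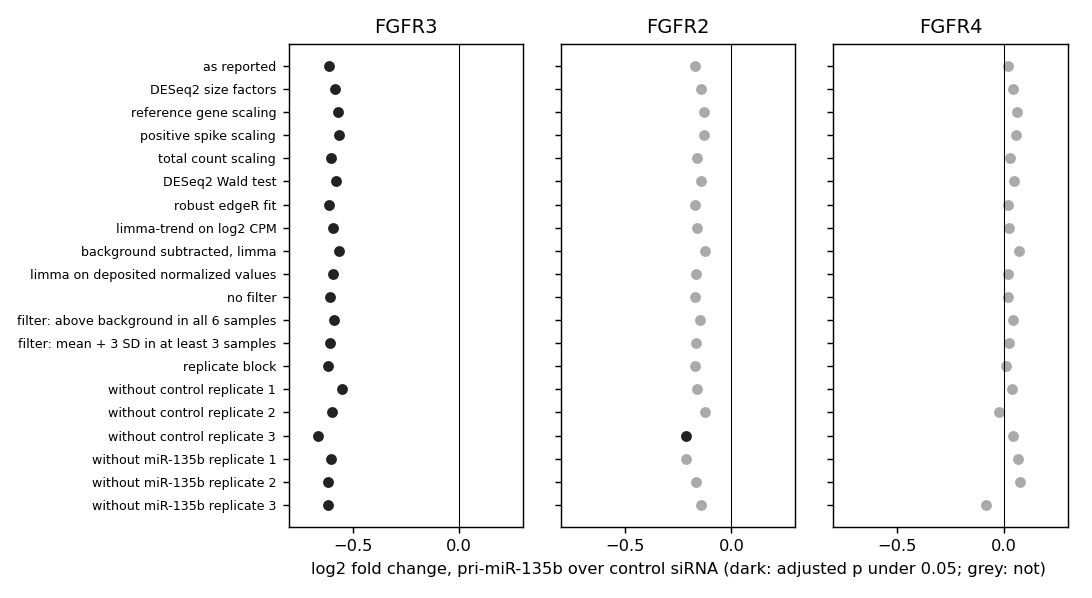
Log2 fold changes of FGFR3, FGFR2 and FGFR4 (pri-miR-135b over control siRNA) as reported and in 19 alternative analyses, 1 row each, dark where the adjusted p was under 0.05. FGFR3 stays between -0.67 and -0.55, FGFR2 is dark in the analysis without control replicate 3, and FGFR4 lies on both sides of 0.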

How the data were processed

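RNA from 6 NCM-460 samples (33 ng per microlitre) was counted by NanoString nCounter, per the labels' protocols. The authors deposited raw counts per probe for 236 genes, 6 positive spikes and 8 negative controls, and a table of normalized signal values. All 1416 of the latter equalled the raw count (0 set to 1) times 1 factor per sample within 0.02. For the basis of these factors and the counting software, nothing is given in the sources used here.

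Raw counts were tested with edgeR 4.0.16 in R 4.3.3 (TMM, glmQLFit, glmQLFTest, group as the only term, two-sided), with Benjamini-Hochberg adjustment over 174 genes. The SE was taken as |log2 fold change| over the root of the F statistic. Normalised counts are TMM-scaled to the mean effective library size. The procedure was tested on simulated data. Alternatives used DESeq2 1.42.0, limma 3.58.1 (prior count 2 or pseudocount 1), other scalings and filters, a replicate block and leaving out each sample. The labels do not state that samples of the same number are pairs, so no pairs were taken. Deviations from the group means correlated at 0.03, -0.14 and 0.12 between samples of the same number, which cannot settle whether pairs exist. Intervals of counts cover counting error only.

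Members and lists were chosen with earlier results of these data known. Named were all members, the 3 genes most like each tested member (Pearson r of log2 counts plus 1), and up to 4 called genes per list with the largest change. CDH1 and MUC1 were added after their values were seen. Some genes that this rule selects are not reported here.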

Additional observations from a re-analysis of the deposited data

How the results depend on the processing

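Between 27 and 80 genes were called in the 19 alternatives, beside 75. The count stayed within 1.5 times of 75 except with positive spike scaling, which left 27 calls and 4 of the 12 among pathway genes. The number of FGF members called stayed 1, except without control replicate 3, so that leaving out 1 sample gave 1 to 3; the cause was not tested. With the replicate block 80 genes passed, FGFR3 had a log2 fold change of -0.615, and still 1 member was called, while 3 of the 6 samples correlated best with the sample of their own number. The sign of FGFR4 turned without control replicate 2 (-0.0206) and without miR-135b replicate 3 (-0.0812), within a range of -0.0812 to 0.0763 over the fits that left out 1 sample. For the untested members the same fits gave -0.242 to 0.379 for FGFR1, lower than 0 without control replicate 1 (-0.205) and miR-135b replicates 2 (-0.0714) and 3 (-0.242), and -0.0322 to 0.279 for FGF2, lower than 0 without replicate 3 of either group (-0.0198 and -0.0322). FGF1 was tested in 16 alternatives, since 2 stricter filters removed it and DESeq2 gave it no adjusted p. With 3 SD or the highest negative control as background, FGF1 exceeded it in 2 and 3 samples, and no other member changed. Subtracting background from the receptor ratios, chosen after seeing the data, moved their log2 differences to -0.44, -0.64 and -0.20, and leaving out 1 sample kept all 3 below 0. FGFR1 and FGF2 lay under the mean of the negative controls in every sample, and whether more counts would resolve them was not tested.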
